A study of Rattus norvegicus with 4 samples.

Results

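Long intergenic noncoding RNAs (lincRNAs) with reads in cultured neonatal rat ventricular cardiomyocytes were examined with and without phenylephrine (PE). The members were all genes that the authors' annotation types as lincRNA and whose mean over the 4 libraries was at least 0.5 CPM (the count divided by the library's total count, times 1000000). The rule left 217 members of 3090 lincRNA genes, in a table of 32883 genes. Of the other lincRNA genes most were silent at this depth, since 1188 of the 3090 had at least 1 read in any library and 1902 had none. The members were selected on their mean CPM over all 4 libraries, so their levels are a description. Just inside the threshold lay AABR07049134.4 at 0.5044 CPM, AABR07061448.2 at 0.5041 CPM and LOC102551439 at 0.5027 CPM, and just outside it lay LOC102555924 at 0.4952 CPM, AABR07072169.1 at 0.4913 CPM and AABR07061902.2 at 0.4884 CPM.

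LincRNAs are transcripts, mostly made by RNA polymerase II and often spliced, that lie between protein-coding genes and hold no long open reading frame. Some act in the nucleus, on chromatin or on the transcription of genes close by, and others act in the cytoplasm, on RNA stability or translation. In the heart, individual long noncoding RNAs are known to modulate hypertrophic growth, but most annotated rat lincRNAs have no assigned function and bear only the name of a genomic clone or contig. Of the 217 members, 189 carried such a name, 25 carried an LOC or RGD identifier, and 3 had a gene name (Tug1, Kantr and Rfwd3). Of a list of 70 known long noncoding RNAs looked up by symbol, 4 were found in the table and 1, Tug1, was a member.

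The cells were taken from the cardiac ventricles of Sprague-Dawley rats on postnatal day 2 and were first left on a plate so that other cells would adhere and be discarded. PE, an agonist of alpha-1 adrenergic receptors that is commonly used to make cultured cardiomyocytes hypertrophic, was present at 20 µM for 24 h in 2 libraries (PE replicates 1 and 2). The other 2 libraries came from untreated cells of the same strain and age (control replicates 1 and 2), and all cells were grown in medium with fetal bovine serum. Total RNA was depleted of ribosomal RNA and sequenced with a strand-specific kit, without poly(A) selection.

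Total counts were 56948370 and 48075810 in PE replicates 1 and 2, and 51917449 and 45637881 in control replicates 1 and 2. Mitochondrial genes took 4.61% and 4.76% of counts in the PE libraries and 6.19% and 11.7% in the control libraries, so control replicate 2 stood apart. The labelled cell type was present in all libraries, with summed cardiomyocyte markers at 14404 and 15491 CPM with PE and 14653 and 15090 CPM in controls. Fibroblast markers summed to 9937 and 9813 CPM with PE and 18777 and 16252 CPM in controls. Of the 8, Col3a1 and Pdgfra were lower, 5 did not pass and 1 was not tested. Most of these sums was collagen. Col3a1 had 2566 and 2792 CPM with PE and 8105 and 6068 CPM in controls, and Col1a1 3226 and 4035 against 6886 and 4475 CPM. Of those that did not pass, Col1a1 and Postn had negative log2 fold changes. Dcn (0.50), Lum (0.11) and Tcf21 (0.04) had positive ones, so the fibroblast sums do not describe the set either. Endothelial markers summed to 130 and 134 CPM with PE and 227 and 218 CPM in controls (5 of 7 lower), and macrophage markers to 216 and 191 CPM with PE and 299 and 323 CPM in controls (2 of 8 lower). Mesothelial markers summed to 98.3 and 108 CPM with PE and 209 and 168 CPM in controls (3 of 6 lower, 1 higher). Smooth muscle and pericyte markers summed to 4631 and 5404 CPM with PE and 3142 and 2106 CPM in controls. Most of these sums was Des alone, at 3800 and 4426 CPM with PE and 2148 and 1305 CPM in controls. Of the 8, Des and Cspg4 were higher, Abcc9 was lower and 5 did not pass, so the sums do not describe the set. No listed marker found in the table was at 0 in every library. The part of these other cells in the member results was not tested, and in bulk samples fewer cells of a type and less RNA per cell cannot be told apart. Whether replicates were separate cultures is not stated in the labels, and each p-value here reflects no more than the variation among these libraries, which may be technical.

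RefSeq's tables for the GRCr8 assembly matched 14 of the 217 members by symbol or synonym, 12 as lncRNA and 2 as protein-coding genes, and gave a promoter window for 11. Each window runs from 250 bases before to 50 bases after the annotated start. The first windows below belong to LOC108351370 (higher with PE) and LOC102550392 (lower with PE), the members with a significant edgeR difference that had one. Neither passed with DESeq2 (adjusted p = 0.0658 and 0.0682), and each lost its edgeR call without PE replicate 2. The last window belongs to Tug1, the member with a widely used name. Capitals mark matches to 6 motifs that were searched on both strands and are spelled out after the windows.
LOC108351370, chr6:112198735-112199034, plus strand: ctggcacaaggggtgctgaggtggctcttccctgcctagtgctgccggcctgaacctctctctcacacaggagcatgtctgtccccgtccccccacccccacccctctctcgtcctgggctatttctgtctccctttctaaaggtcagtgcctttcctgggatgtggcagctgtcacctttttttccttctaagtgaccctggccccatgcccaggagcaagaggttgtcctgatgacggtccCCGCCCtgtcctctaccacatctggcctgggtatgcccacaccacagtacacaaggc
LOC102550392, chr3:34214004-34214303, plus strand: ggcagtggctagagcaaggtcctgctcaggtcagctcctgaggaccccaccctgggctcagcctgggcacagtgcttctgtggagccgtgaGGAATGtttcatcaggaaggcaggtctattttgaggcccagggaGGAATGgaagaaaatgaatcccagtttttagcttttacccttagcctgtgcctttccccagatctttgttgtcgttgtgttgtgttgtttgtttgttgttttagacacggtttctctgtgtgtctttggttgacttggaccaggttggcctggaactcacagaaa
Tug1, chr14:82750485-82750784, minus strand: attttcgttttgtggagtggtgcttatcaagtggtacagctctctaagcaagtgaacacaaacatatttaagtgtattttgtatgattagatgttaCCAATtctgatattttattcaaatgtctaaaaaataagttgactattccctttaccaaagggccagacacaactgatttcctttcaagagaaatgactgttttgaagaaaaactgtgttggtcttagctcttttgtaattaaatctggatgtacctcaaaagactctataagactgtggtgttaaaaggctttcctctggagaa
LOC108351370 had 1 match to GGGCGG, the letters bound by Sp1 factors, shown as the reverse complement. Of 33469 RefSeq promoter windows of this length, 33.1% hold this motif. LOC102550392 had 2 matches to CATTCC, the letters bound by the TEAD factors of the Hippo pathway, also shown as the reverse complement. That motif is held by 14.2% of windows. Tug1 had 1 match to CCAAT, the letters bound by NF-Y, a motif in 37.5% of windows. Of the other motifs searched, the AP-1 motif TGANTCA is in 7.3% of all windows. The motif of the cardiac transcription factor Gata4, AGATAA, is in 11.6% of all windows. The core promoter element TATAAA is in 14.2% of all windows. None of these 3 motifs had a match in the 3 windows shown, and no matches overlap. LOC108351370 has 2 starts in the table, and the first is shown. The matches are descriptions of letters, not evidence of binding.

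The reads of the members were concentrated in 3 clone-named genes. All 217 members took 0.797% and 0.806% of counts in PE replicates 1 and 2, and 0.616% and 0.912% in control replicates 1 and 2. AC134224.1, AC134224.2 and AC134224.3 held most of this, at 0.697% and 0.707% of counts with PE and 0.513% and 0.797% in controls. The other 214 members together took 0.100% and 0.0991% of counts with PE and 0.103% and 0.115% in controls. The median member had a mean of 1.51 CPM, in a range of 0.503 to 3188 CPM, with 167 members under 5 CPM and 4 at 50 CPM or more. Protein-coding genes past the same threshold had a median of 24.4 CPM. CPM is not divided by transcript length, so it gives reads and not the order of molar abundance between genes.

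AC134224.1 (ENSRNOG00000062127) had 3425 and 3431 CPM with PE, against 2432 and 3466 CPM in controls. Its groups overlapped, because control replicate 2 was as high as the PE libraries (log2 fold change 0.26 ± 0.21 SE, edgeR adjusted p = 0.473), and without control replicate 2 it passed at 0.57 (adjusted p = 4.61e-05). AC134224.2 (ENSRNOG00000062155) had 2338 and 2549 CPM with PE, against 1846 and 1902 CPM in controls. Both PE libraries lay above both controls, but the gene did not pass the test (0.43 ± 0.17, adjusted p = 0.128). It passed without control replicate 1 (0.39, adjusted p = 0.00982), without control replicate 2 (0.48, adjusted p = 0.00117) and with a crossed replicate block that pairs PE replicate 1 with control replicate 2 and PE replicate 2 with control replicate 1, an alternative added after seeing the data (0.43, adjusted p = 0.0497).

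AC134224.3 (ENSRNOG00000062158) had 1210 and 1087 CPM with PE, against 853 and 2607 CPM in controls. The controls enclosed the PE libraries, with control replicate 2 a factor of 3.06 above control replicate 1 (log2 fold change −0.56 ± 0.40, adjusted p = 0.408). Its direction depended on which control was kept, at −1.15 without control replicate 1 (adjusted p = 8.84e-19) and 0.50 without control replicate 2 (adjusted p = 0.00136). With no expression filter it passed at −0.56 (adjusted p = 0.0109). The same ratio was lower for the other 2 genes, at 1.43 for AC134224.1 and 1.03 for AC134224.2.

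**Figure D1:**
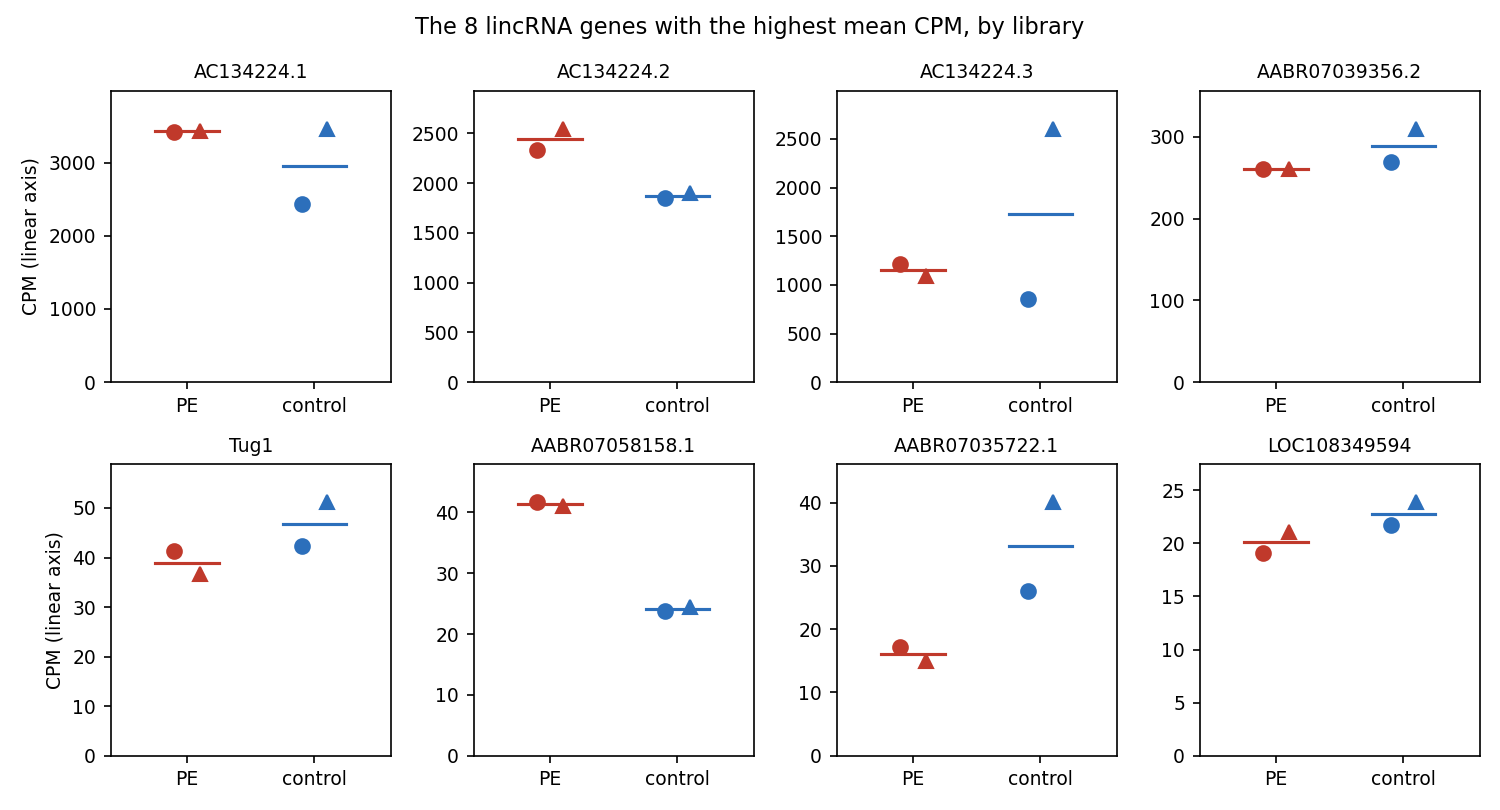
CPM (linear axis from 0, a scale of its own in each panel) of the 8 members with the highest mean CPM, by library. Circles are replicate 1 and triangles replicate 2, red is PE and blue is control, and the line is the group mean; AC134224.3 has the control pair farthest apart, 853 and 2607 CPM, and the groups of AABR07058158.1 are well separated.

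Among the other members with many reads, AABR07039356.2 (ENSRNOG00000051257) had 260 and 260 CPM with PE, against 269 and 310 CPM in controls. It did not pass the test (−0.11 ± 0.16, adjusted p = 0.72), and its sign turned without control replicate 2 (0.03, adjusted p = 0.919). Its row stands beside those of the microRNA genes Mir421 and Mir374b. Tug1 (ENSRNOG00000051135), a lincRNA first described in the retina and known in other tissues as a regulator of transcription, had 41.3 and 36.6 CPM with PE, against 42.4 and 51.2 CPM in controls. Both PE libraries lay below both controls without passing the test (−0.22 ± 0.18, adjusted p = 0.465). Of its flanking genes, Smtn, which encodes the smooth muscle protein smoothelin, was lower with PE (−0.67, adjusted p = 0.0322), a call lost without PE replicate 1 (−0.59, adjusted p = 0.444) or else PE replicate 2 (−0.74, adjusted p = 0.246). Morc2, the other flank, did not pass (0.02).

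AABR07058158.1 (ENSRNOG00000062170), in the row interval that follows Myc, had 41.7 and 41.0 CPM with PE, against 23.8 and 24.5 CPM in controls. The groups were far apart, and the gene was higher with PE by 0.82 ± 0.16 on the log2 scale (adjusted p = 0.00676). The difference kept its size but missed the threshold without PE replicate 1 (0.82, adjusted p = 0.131) or else PE replicate 2 (0.84, adjusted p = 0.109). Myc itself did not pass (0.08, adjusted p = 0.781). AABR07035722.1 (ENSRNOG00000056359) had 17.2 and 15 CPM with PE, against 26.1 and 40.1 CPM in controls. It was lower with PE (−1.0 ± 0.23, adjusted p = 0.0147), but not past the threshold without PE replicate 2 (−0.90, adjusted p = 0.111).

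LOC108349594 had 19.1 and 21.1 CPM with PE, against 21.7 and 23.9 CPM in controls, and did not pass (−0.14 ± 0.18, adjusted p = 0.672). AABR07072236.1, next to Zbtb20 and Mir568, had 15.8 and 16.7 CPM with PE, against 21.2 and 30.6 CPM in controls. It missed the threshold in the edgeR fit with TMM factors (−0.63 ± 0.21, adjusted p = 0.078). It passed with library sizes alone (adjusted p = 0.0485), with no expression filter (adjusted p = 0.0181), with the crossed replicate block (adjusted p = 0.000685) and without control replicate 1 (−0.88, adjusted p = 1.92e-06). AABR07025385.1 and AABR07025386.1 share the interval before Hand2, which encodes a transcription factor of heart development. AABR07025386.1 had 17.2 and 15.8 CPM with PE, against 10.8 and 11.5 CPM in controls, and was higher just inside the threshold (0.61 ± 0.18, adjusted p = 0.0499). That call was lost without PE replicate 1 (0.55, adjusted p = 0.467), without PE replicate 2 (0.67, adjusted p = 0.284), with library sizes in place of TMM factors (0.56, adjusted p = 0.0661), with DESeq2's size factors (adjusted p = 0.0506) and on leaving out the mitochondrial genes (adjusted p = 0.0534). AABR07025385.1 had 20.6 and 23.1 CPM with PE, against 14.7 and 20.1 CPM in controls, and did not pass (0.37 ± 0.21, adjusted p = 0.277). It passed without control replicate 2 (0.65, adjusted p = 0.00206) and with the crossed replicate block (0.39, adjusted p = 0.0431). Hand2 did not pass (−0.36, adjusted p = 0.261).

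The other 2 members with a gene name had few reads. Kantr, a noncoding RNA gene next to Kdm5c, had 0.966 and 1.16 CPM with PE, against 1.25 and 1.29 CPM in controls, and did not pass (−0.21 ± 0.33, adjusted p = 0.729). The member labelled Rfwd3 had 10.9 and 9.44 CPM with PE, against 10.4 and 8.22 CPM in controls, with overlapping groups (0.17 ± 0.20, adjusted p = 0.634). RefSeq lists Rfwd3, an E3 ubiquitin ligase gene of the DNA damage response, as protein-coding, so the lincRNA type of this identifier in the authors' table and the symbol go against each other. The same holds for RGD1565989, a RefSeq synonym of the protein-coding Larp1bl, which had 2.11 and 1.68 CPM with PE and 1.52 and 2.28 CPM in controls and did not pass (0.05 ± 0.31, adjusted p = 0.946).

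PE changed 35 of the 217 members. Of these, 14 were higher, by 1.52-fold to 7.87-fold, and 21 were lower, by 1.62-fold to 8.49-fold, while 182 did not pass (edgeR's quasi-likelihood test, Benjamini-Hochberg adjusted p under 0.05 over 15257 tested genes). The share of members called, 16.1%, was close to the background of 15.7% of all tested genes, of which 7.39% were higher and 8.30% were lower, and to the 16.9% of protein-coding genes past 0.5 CPM. Over all levels together, members were called about as often as other genes. Some members passed the rule through 1 group alone. Of the 187 at 0.5 CPM or more in both groups, 13.9% were called. The shares by level, given below, lay on both sides of those of protein-coding genes. Members divided into 105 with a positive and 112 with a negative log2 fold change, with a median of −0.03 against −0.01 over all tested genes. The median size of the log2 fold change was 0.40 for members, against 0.30 for all tested genes and 0.28 for the protein-coding genes. These sets differ in level, with a median of 1.51 CPM for members and 24.4 CPM for the protein-coding genes. Between 0.5 and 1 CPM the median size was 0.50 for members and 0.64 for protein-coding genes. It was 0.36 and 0.44 between 1 and 5 CPM, and 0.40 and 0.25 between 5 and 50 CPM. The 0.40 over all members also has to be read with the spread between replicates. Members had a median absolute log2 ratio of 0.270 between the PE libraries and 0.315 between the controls, against 0.146 and 0.292 for protein-coding genes.

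The groups did not overlap for 57 members with PE above control and 77 with PE below, where the background over all tested genes is 24.9% and 31.1%. All 35 called members were among these. By level, 6 of the 68 members between 0.5 and 1 CPM passed (8.82%, against 15.3% of protein-coding genes in that band), 17 of 99 between 1 and 5 CPM (17.2%, against 21.5%), 12 of 46 between 5 and 50 CPM (26.1%, against 15.6%), and 0 of 4 above. These shares were not compared by a test. The 4 at the top are the AC134224 genes and AABR07039356.2. Of the members, 16 reached 0.5 CPM in the PE mean alone, with 4 of them higher, and 14 in the control mean alone, with 5 lower. These passed the rule through the group in which they were high. Called higher among them were AABR07041411.1, AABR07041418.1, AABR07052441.1 and AABR07008030.1. Called lower among them were AABR07031489.1, AABR07010985.1, AABR07039153.2, AABR07026924.1 and LOC102550392. Of the 187 members at 0.5 CPM or more in both groups, 10 were higher and 16 lower (13.9%).

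**Figure D2:**
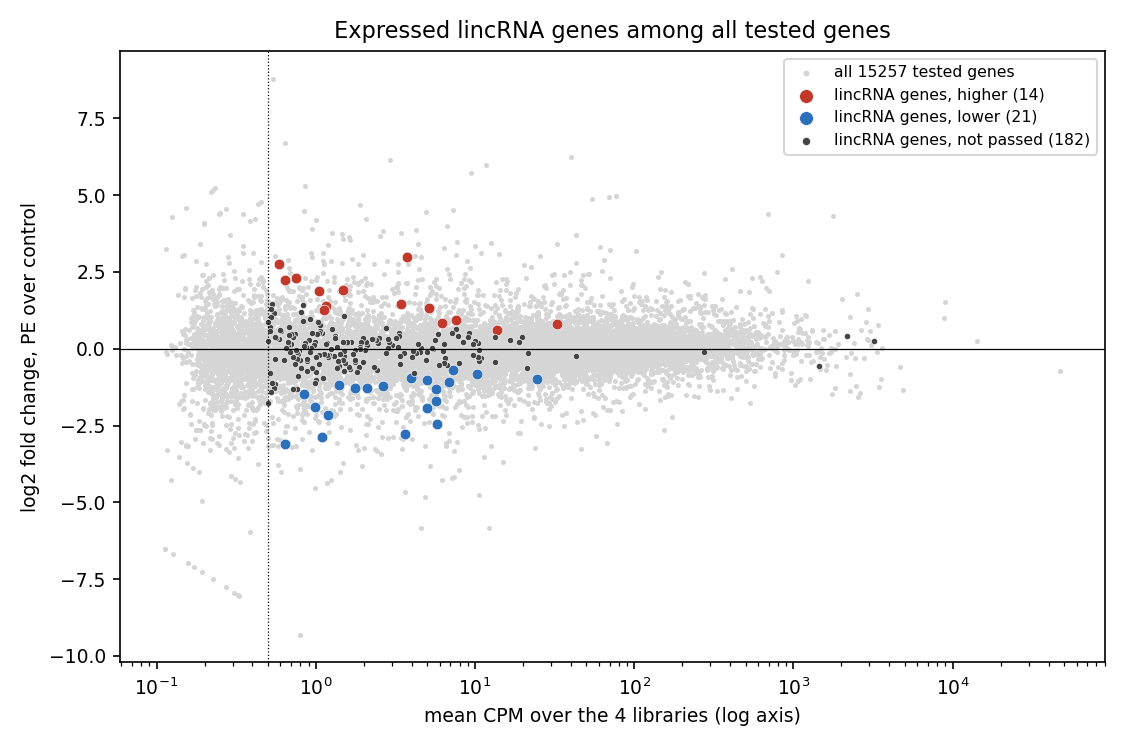
Log2 fold change (PE over control) against mean CPM over the 4 libraries (log axis) for all 15257 tested genes in light grey, with the 14 higher members in red, the 21 lower members in blue and the 182 that did not pass in dark grey. The dotted line marks 0.5 CPM, and the called members have mean levels from 0.585 to 32.7 CPM.

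In the authors' deposited table all 217 members have an adjusted p, and 12 are higher and 19 lower, where 8.13% and 8.65% of its genes with an adjusted p are. All 31 of these were also called here. The 4 called by edgeR alone were AABR07042840.1, LOC108351370, LOC102550392 and AABR07059159.1.

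The largest rise was that of LOC102551356 (ENSRNOG00000059170), with 6.88 and 6.30 CPM with PE, against 0.809 and 0.920 CPM in controls. Its level with PE was 7.87-fold the control level (log2 fold change 2.98 ± 0.25, adjusted p = 5.45e-05), and it passed without each library in turn. Its flanking gene Pmaip1, which encodes the pro-apoptotic protein Noxa, did not pass (0.71, adjusted p = 0.0758). AABR07041411.1 had 1.18 and 0.853 CPM with PE (67 and 41 reads), against 0.135 and 0.175 CPM in controls (7 and 8 reads), a log2 fold change of 2.75 ± 0.51 (adjusted p = 0.00451). AABR07041418.1, which shares with it the interval between Sh2d1a and Tex13c on chromosome X, had 1.07 and 1.04 CPM with PE, against 0.116 and 0.351 CPM in controls. Both reached 0.5 CPM in the PE mean alone (control means 0.155 and 0.233 CPM), so the rule took them through the PE group. Both passed the test without each library in turn. The size of the second rested on the controls, at 2.24 ± 0.54 with all libraries (adjusted p = 0.0192), 1.61 without control replicate 1 and 3.24 without control replicate 2.

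AC111831.1 had 2.23 and 2.41 CPM with PE, against 0.539 and 0.723 CPM in controls (1.92 ± 0.33, adjusted p = 0.00316). AABR07042454.2 had 5.11 and 4.91 CPM with PE, against 1.81 and 1.93 CPM in controls (1.47 ± 0.23, adjusted p = 0.00201). AABR07011013.1 had 6.57 and 7.90 CPM with PE, against 2.48 and 3.51 CPM in controls (1.32 ± 0.25, adjusted p = 0.00539). With LOC102551356 and the pair on chromosome X, these were the 6 of the 14 rises that passed without each library in turn. None of the 6 names is that of a characterised gene, so their function is not given here.

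The other rises lost their call when a PE library was left out. The spread then came from the control pair alone, so a lost call need not mean a smaller difference. AABR07052441.1 had 1.0 and 1.5 CPM with PE, against 0.193 and 0.329 CPM in controls (2.30 ± 0.48, adjusted p = 0.00853), and 1.99 without PE replicate 2 (adjusted p = 0.0522). AABR07008030.1 had 1.26 and 2.02 CPM with PE, against 0.443 and 0.482 CPM in controls (1.87 ± 0.40, adjusted p = 0.00980), and 1.5 without PE replicate 2 (adjusted p = 0.11). Here the lower PE library was still above both controls. AABR07042840.1 had 1.40 and 1.91 CPM with PE, against 0.443 and 0.876 CPM in controls, and passed narrowly (1.38 ± 0.41, adjusted p = 0.0475). It was lost without PE replicate 2 (1.14, adjusted p = 0.236) and without control replicate 1 (0.94, adjusted p = 0.0761), and stood at 1.97 without control replicate 2. The call was also lost with DESeq2's size factors (adjusted p = 0.0502) and on leaving out the mitochondrial genes (adjusted p = 0.0523). LOC108351370, whose promoter window is given above, had 1.63 and 1.48 CPM with PE, against 0.693 and 0.657 CPM in controls (1.25 ± 0.34, adjusted p = 0.0318). Its groups were well apart, but it was lost without PE replicate 1 (1.18, adjusted p = 0.224) or else PE replicate 2 (1.32, adjusted p = 0.106).

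AABR07031399.1 had 8.74 and 10.9 CPM with PE, against 4.68 and 5.92 CPM in controls (0.93 ± 0.22, adjusted p = 0.0182), and was lost without PE replicate 2 (0.77, adjusted p = 0.172). AABR07006724.1 had 7.41 and 8.32 CPM with PE, against 4.49 and 4.65 CPM in controls (0.83 ± 0.20, adjusted p = 0.0210). It was lost without PE replicate 1 (0.92, adjusted p = 0.0772) or else PE replicate 2 (0.75, adjusted p = 0.202). Both were under 2-fold, as were AABR07058158.1 and AABR07025386.1, so 10 of the 14 rises reached 2-fold.

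**Figure D3:**
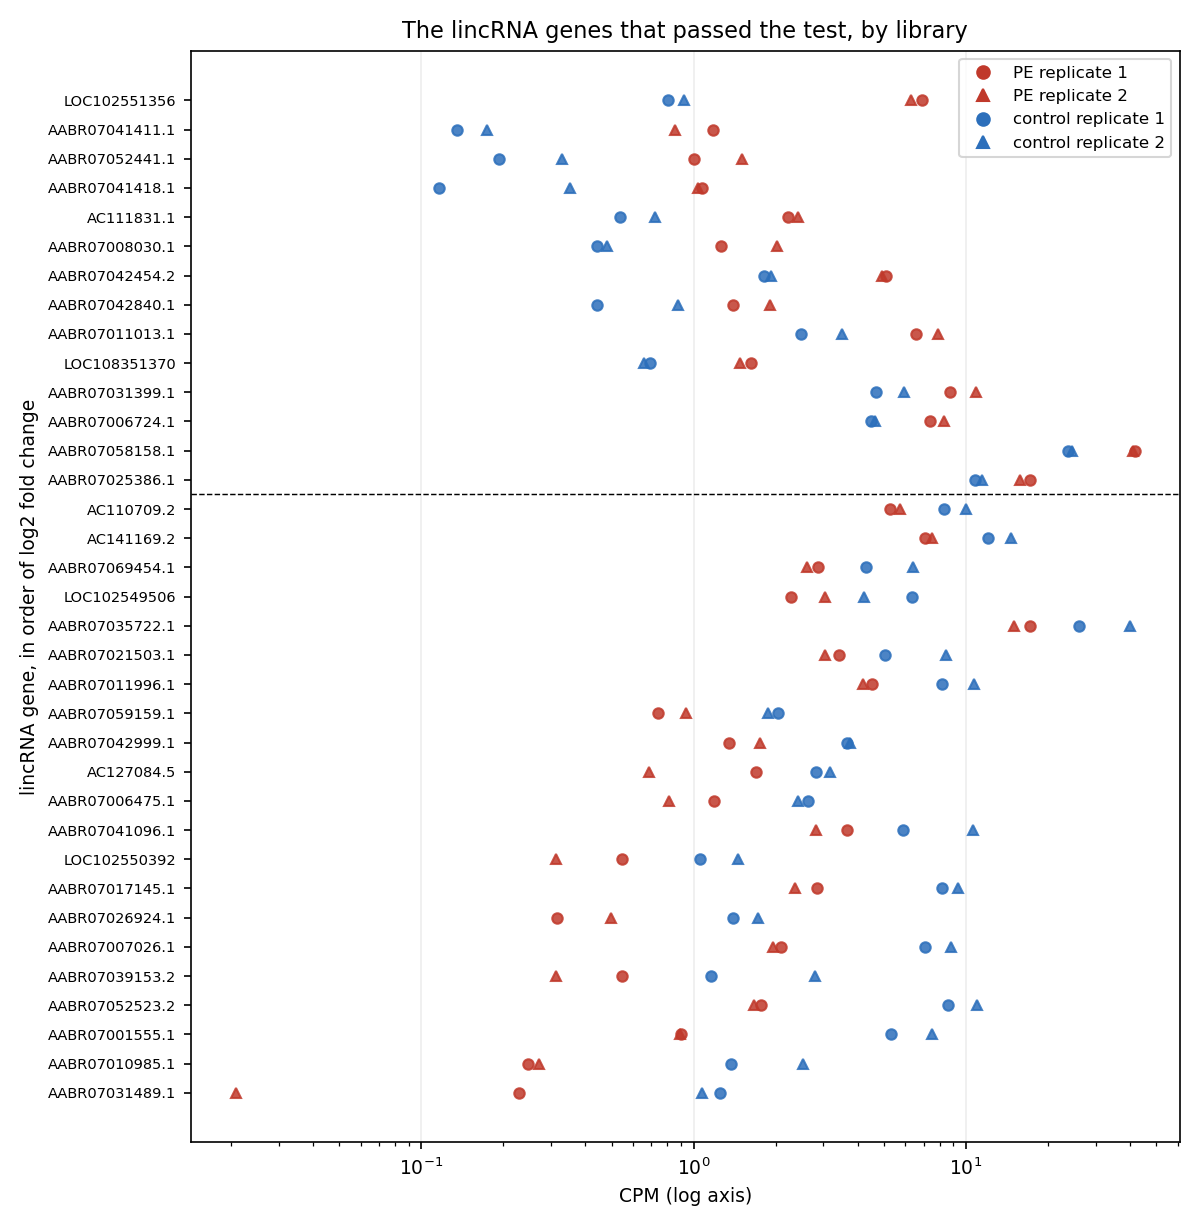
CPM (log axis) in each library of the 35 called members, ordered by log2 fold change, with the 14 rises above the dashed line and the 21 falls under it. Circles are replicate 1, triangles replicate 2, red is PE and blue is control; the PE and control points of a member do not overlap, and LOC102551356 stands at 6.88 and 6.30 CPM with PE against 0.809 and 0.920 CPM in controls.

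Among the falls, AABR07031489.1 had the lowest fitted value, with 0.228 and 0.0208 CPM with PE (13 and 1 reads), against 1.25 and 1.07 CPM in controls (65 and 49 reads). It was lower in both PE libraries (log2 fold change −3.09 ± 0.67, adjusted p = 0.0104), with a size set by 1 library, since it was −5.59 when PE replicate 1 was left out and −2.29 when PE replicate 2 was. AABR07010985.1 had 0.246 and 0.270 CPM with PE, against 1.37 and 2.52 CPM in controls (−2.86 ± 0.45, adjusted p = 0.00196). AABR07001555.1 had 0.896 and 0.894 CPM with PE, against 5.30 and 7.52 CPM in controls (−2.79 ± 0.28, adjusted p = 0.000150). The last 2 were lower by 7.26-fold and 6.93-fold. In row order, AABR07010985.1 shares the interval after Ssr3, a gene of the endoplasmic reticulum translocon, with AABR07011013.1, which was higher. Members of the same row interval thus moved in opposite directions there, but the distance between its flanks in GRCr8 could not be checked. Ssr3 did not pass (0.43, adjusted p = 0.125).

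AABR07052523.2 had 1.77 and 1.66 CPM with PE, against 8.57 and 11 CPM in controls, the smallest adjusted p of the falls (−2.46 ± 0.24, adjusted p = 0.000120). AABR07007026.1 had 2.09 and 1.96 CPM with PE, against 7.09 and 8.85 CPM in controls (−1.93 ± 0.24, adjusted p = 0.000419). AABR07017145.1 had 2.83 and 2.35 CPM with PE, against 8.19 and 9.36 CPM in controls (−1.71 ± 0.22, adjusted p = 0.000639). In each of these members the PE libraries differed little from each other and lay well below both controls. AABR07039153.2 had 0.544 and 0.312 CPM with PE, against 1.16 and 2.80 CPM in controls (−2.14 ± 0.50, adjusted p = 0.0160), and −1.34 without control replicate 2. AABR07041096.1 had 3.65 and 2.81 CPM with PE, against 5.86 and 10.6 CPM in controls (−1.30 ± 0.30, adjusted p = 0.0158), and −0.78 without control replicate 2. These 8 falls passed without each library in turn. Among them, AABR07031489.1, AABR07010985.1 and AABR07039153.2 reached 0.5 CPM in the control mean alone, so the rule took them through the control group.

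The falls that follow lost their call when 1 library was left out, with the spread then taken from the other pair alone. AABR07026924.1 had 0.316 and 0.499 CPM with PE, against 1.39 and 1.73 CPM in controls (−1.89 ± 0.40, adjusted p = 0.00999), and −1.58 without PE replicate 1 (adjusted p = 0.0645). LOC102550392, shown above with its promoter window, had 0.544 and 0.312 CPM with PE, against 1.06 and 1.45 CPM in controls (−1.48 ± 0.44, adjusted p = 0.0438). It was lost without PE replicate 2 (−1.15, adjusted p = 0.281) and without control replicate 2 (−1.22, adjusted p = 0.0884). AABR07006475.1 had 1.19 and 0.811 CPM with PE, against 2.64 and 2.41 CPM in controls (−1.28 ± 0.31, adjusted p = 0.0193), and −1.03 without PE replicate 2 (adjusted p = 0.161). AC127084.5 had 1.69 and 0.686 CPM with PE, against 2.81 and 3.18 CPM in controls (−1.27 ± 0.38, adjusted p = 0.0481). Its PE libraries lay far apart, and the value was −2.07 when PE replicate 1 was left out and −0.78 when PE replicate 2 was (adjusted p = 0.325).

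The remaining falls were AABR07042999.1, AABR07059159.1, AABR07011996.1, AABR07021503.1, LOC102549506, AABR07069454.1, AC141169.2 and AC110709.2, at log2 fold changes of −1.21 to −0.69. AC141169.2 had 7.06 and 7.49 CPM with PE, against 12.1 and 14.6 CPM in controls (−0.83 ± 0.20, adjusted p = 0.0190). It was lost without PE replicate 1 (−0.78, adjusted p = 0.219) or else PE replicate 2 (−0.87, adjusted p = 0.133). LOC102549506 had 2.28 and 3.04 CPM with PE, against 6.36 and 4.23 CPM in controls (−0.95 ± 0.27, adjusted p = 0.0381), and was lost without PE replicate 1 (−0.74, adjusted p = 0.29) or control replicate 1 (−0.65, adjusted p = 0.0554). AABR07069454.1 had 2.86 and 2.6 CPM with PE, against 4.28 and 6.42 CPM in controls (−0.92 ± 0.26, adjusted p = 0.0399), and was lost when any of 3 libraries was left out, PE replicate 1 (−0.99, adjusted p = 0.0946), then PE replicate 2 (−0.85, adjusted p = 0.169), then control replicate 2 (−0.57, adjusted p = 0.0919). AC110709.2, between Smc3 and Rbm20, had 5.25 and 5.72 CPM with PE, against 8.32 and 9.97 CPM in controls (−0.69 ± 0.21, adjusted p = 0.0487). It was lost without PE replicate 1 (−0.62, adjusted p = 0.403) or else PE replicate 2 (−0.75, adjusted p = 0.235), and with DESeq2's size factors (adjusted p = 0.0502). Its neighbour Rbm20, which encodes a splicing factor for titin, did not pass (−0.28, adjusted p = 0.316).

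Of the 182 members that did not pass, 127 had a log2 fold change within 0.5 of 0 and 16 had a fitted difference of 2-fold or more. At an unadjusted p under 0.05 there were 29, of which 12 had positive and 17 negative values. The most negative was AABR07061448.2, with 0.140 and 0.312 CPM with PE, against 0.578 and 0.986 CPM in controls (−1.75, adjusted p = 0.0622). The most positive was AABR07005779.7, with 0.755 and 0.790 CPM with PE, against 0.212 and 0.372 CPM in controls (1.45, adjusted p = 0.0727). AABR07057997.1 had 1.07 and 1.33 CPM with PE, against 0.289 and 0.635 CPM in controls (1.43, adjusted p = 0.0630). In all 3 the groups did not overlap, and none passed the test.

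Replicates of 1 condition differed more in the control pair. Control replicate 2 was at least 2-fold above control replicate 1 in 16 members and at least 2-fold below in 5 (9.68% together), against 2.41% of the protein-coding genes. PE replicate 2 was at least 2-fold above PE replicate 1 in 5 members and below in 5 (4.61%), against 1.03% of the protein-coding genes. AABR07035008.1 had a ratio of control replicate 2 over replicate 1 of 4.65, and AC134224.3 and AABR07041418.1 had ratios of 3.06 and 3.03. Members have fewer reads than protein-coding genes. At 0.5 to 1 CPM, the median absolute log2 ratio between the controls was 0.401 for members and 0.485 for protein-coding genes. It was 0.316 and 0.327 at 1 to 5 CPM, and 0.246 and 0.286 at 5 to 50 CPM. Between the PE libraries it was 0.395 and 0.363, 0.272 and 0.259, and 0.168 and 0.139 in the same bands. Whether read number accounts for the 2-fold shares was not tested.

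Members were set beside the nearest protein-coding genes before and after them in the count table, whose row order follows the genome. Of 17052 genes matched by symbol to GRCr8, 98.8% of consecutive ones lie on the same chromosome and 94.9% within 1 Mb. Both flanks of 110 members are within 1 Mb of each other in GRCr8, those of 13 are not, and 94 could not be checked. Among the called members with a called flank, the check failed for AABR07021503.1 and could not be made for AABR07006475.1 and AABR07041096.1. The flanks of LOC102551356, AABR07041411.1, AABR07041418.1, AABR07058158.1 and AABR07031399.1 were also not within that distance. The strand setting of the authors' counting is not given in the sources used here, so reads of a member and of a gene that overlaps it cannot be told apart. Of the 17 tested flanking genes of the 14 higher members, 5 were higher and 0 lower. Of the 31 flanking genes of the 21 lower members, 2 were higher and 9 lower. The 182 other members had 268 tested flanks, of which 25 (9.33%) were higher and 24 (8.96%) lower, near the background over all genes. Across 316 pairs of a member and a flanking gene, Pearson's r of the log2 fold changes was 0.20 and Spearman's rho 0.19, as a description over pairs that share libraries and, in part, members.

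By member, 11 of the 35 had a flanking gene called in the same direction (4 higher, 7 lower). Another 2 had one called in the opposite direction, 17 had tested flanks that did not pass, and 5 had no tested flank. The 11 include AABR07021503.1, AABR07006475.1 and AABR07041096.1, for which the distance check failed or could not be made. They also include AABR07052441.1, taken by the rule through the PE group, and AABR07039153.2, taken through the control group. AABR07031489.1, with an opposite flank, was also taken through the control group. Among the rises, AABR07052441.1 lies between Xirp2 and B3galt1. Xirp2 encodes a Xin-repeat protein that binds actin in striated muscle, and had 1538 and 1089 CPM with PE, against 41.7 and 86.4 CPM in controls (4.40 ± 0.36, adjusted p = 4.43e-05, and 5.05 without control replicate 2). B3galt1, a galactosyltransferase gene, had 7.30 and 7.61 CPM with PE, against 0.944 and 0.964 CPM in controls (3.01 ± 0.24, adjusted p = 4.29e-05). The member and both of its flanks were thus higher.

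AABR07042840.1 lies beside Gnao1, which encodes the alpha subunit of the G protein Go, at 118 and 138 CPM with PE, against 57.2 and 53.0 CPM in controls (1.27 ± 0.17, adjusted p = 0.000635). AABR07042454.2 lies between Haus7, a gene of the augmin complex of the spindle, and Bgn, which encodes the proteoglycan biglycan. Haus7 was higher (0.87 ± 0.18, adjusted p = 0.00762), a call lost without PE replicate 1 (0.81, adjusted p = 0.139) or else PE replicate 2 (0.93, adjusted p = 0.0621), and Bgn did not pass (−0.13, adjusted p = 0.678). AC111831.1 lies between Ppm1b, a protein phosphatase gene, and Lrpprc. Ppm1b was higher (0.58 ± 0.16, adjusted p = 0.0375), a call lost without PE replicate 1 (0.56, adjusted p = 0.456) or else PE replicate 2 (0.62, adjusted p = 0.36), and Lrpprc did not pass (0.20, adjusted p = 0.449).

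The 7 falls with a lower flank are given in turn. AABR07007026.1 stands next to Adrb1, which encodes the beta-1 adrenergic receptor, at 9.17 and 10.0 CPM with PE, against 22.2 and 19.1 CPM in controls (−1.06 ± 0.18, adjusted p = 0.00340). The Adrb1 call was lost without PE replicate 1 (−0.99, adjusted p = 0.0723), whereas the member kept its call without each library in turn. AABR07041096.1 stands next to Agtr2, which encodes the type 2 angiotensin II receptor, at 0.176 and 0.458 CPM with PE, against 1.19 and 1.49 CPM in controls (−2.06 ± 0.49, adjusted p = 0.0181). Agtr2 stood at −1.49 without PE replicate 1 (adjusted p = 0.121) and −2.87 without PE replicate 2. AABR07039153.2 stands next to Eda, which encodes ectodysplasin A, a ligand of the tumour necrosis factor family, at 2.07 and 1.98 CPM with PE, against 8.13 and 7.60 CPM in controls (−1.91 ± 0.22, adjusted p = 0.000293).

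AABR07042999.1 lies between Irx3 and Irx5, Iroquois homeobox genes that pattern ventricular conduction and repolarisation in the mouse. The member had 1.35 and 1.75 CPM with PE, against 3.66 and 3.75 CPM in controls (−1.21 ± 0.26, adjusted p = 0.0108), and −1.03 without PE replicate 1 (adjusted p = 0.11). Irx3 had 26.2 and 28.9 CPM with PE, against 66.3 and 51.0 CPM in controls (−1.04 ± 0.18, adjusted p = 0.00317). Irx5 had 13.1 and 13.9 CPM with PE, against 28.8 and 21.5 CPM in controls (−0.84 ± 0.19, adjusted p = 0.0143). The 3 were all lower, and all 3 calls were lost without PE replicate 1, with Irx3 at −0.97 (adjusted p = 0.0794) and Irx5 at −0.79 (adjusted p = 0.204), and Irx5 also without PE replicate 2 (−0.89, adjusted p = 0.122).

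AABR07059159.1 had 0.738 and 0.936 CPM with PE, against 2.04 and 1.88 CPM in controls (−1.19 ± 0.32, adjusted p = 0.0310), and was lost without PE replicate 1 (−1.01, adjusted p = 0.26) or else PE replicate 2 (−1.36, adjusted p = 0.0717). Its flank Actr3b, an actin-related protein gene, had 2.09 and 2.45 CPM with PE, against 7.59 and 5.32 CPM in controls (−1.46 ± 0.25, adjusted p = 0.00308). AABR07021503.1 had 3.42 and 3.04 CPM with PE, against 5.05 and 8.48 CPM in controls (−1.02 ± 0.28, adjusted p = 0.0332), with −0.93 without PE replicate 2 (adjusted p = 0.102) and −0.57 without control replicate 2 (adjusted p = 0.0716). Its row flanks Tp53i3 (−0.81, adjusted p = 0.00895) and Sec16b (−1.14, adjusted p = 0.00553) were both lower, but they do not lie within 1 Mb of each other in GRCr8. Tp53i3 was lost without PE replicate 1 (−0.86, adjusted p = 0.14) or else PE replicate 2 (−0.74, adjusted p = 0.245), and Sec16b without PE replicate 1 (−0.99, adjusted p = 0.0693). AABR07006475.1 stands next to Gcnt1, a glycosyltransferase gene that was lower (−0.83, adjusted p = 0.0168), a call lost without PE replicate 1 (−0.89, adjusted p = 0.124) or else PE replicate 2 (−0.77, adjusted p = 0.217).

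In 2 intervals the member and its flank were called in opposite directions. AABR07031489.1, lower with PE, stands between Ttr and Dsg2. Dsg2 encodes the desmosomal cadherin desmoglein-2 and had 213 and 206 CPM with PE, against 132 and 126 CPM in controls (0.74 ± 0.15, adjusted p = 0.00871), while Ttr did not pass (0.88, adjusted p = 0.182). The Dsg2 call was lost without PE replicate 1 (0.73, adjusted p = 0.233) or else PE replicate 2 (0.77, adjusted p = 0.175). AABR07011996.1 had 4.51 and 4.20 CPM with PE, against 8.19 and 10.7 CPM in controls (−1.07 ± 0.22, adjusted p = 0.00871), with −1.01 without PE replicate 2 (adjusted p = 0.0585). Its flank Pdgfc, a platelet-derived growth factor gene, had 22.4 and 22.9 CPM with PE, against 13.2 and 13.4 CPM in controls (0.81 ± 0.17, adjusted p = 0.0104), and was lost without PE replicate 1 (0.84, adjusted p = 0.12) or else PE replicate 2 (0.80, adjusted p = 0.144).

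**Figure D4:**
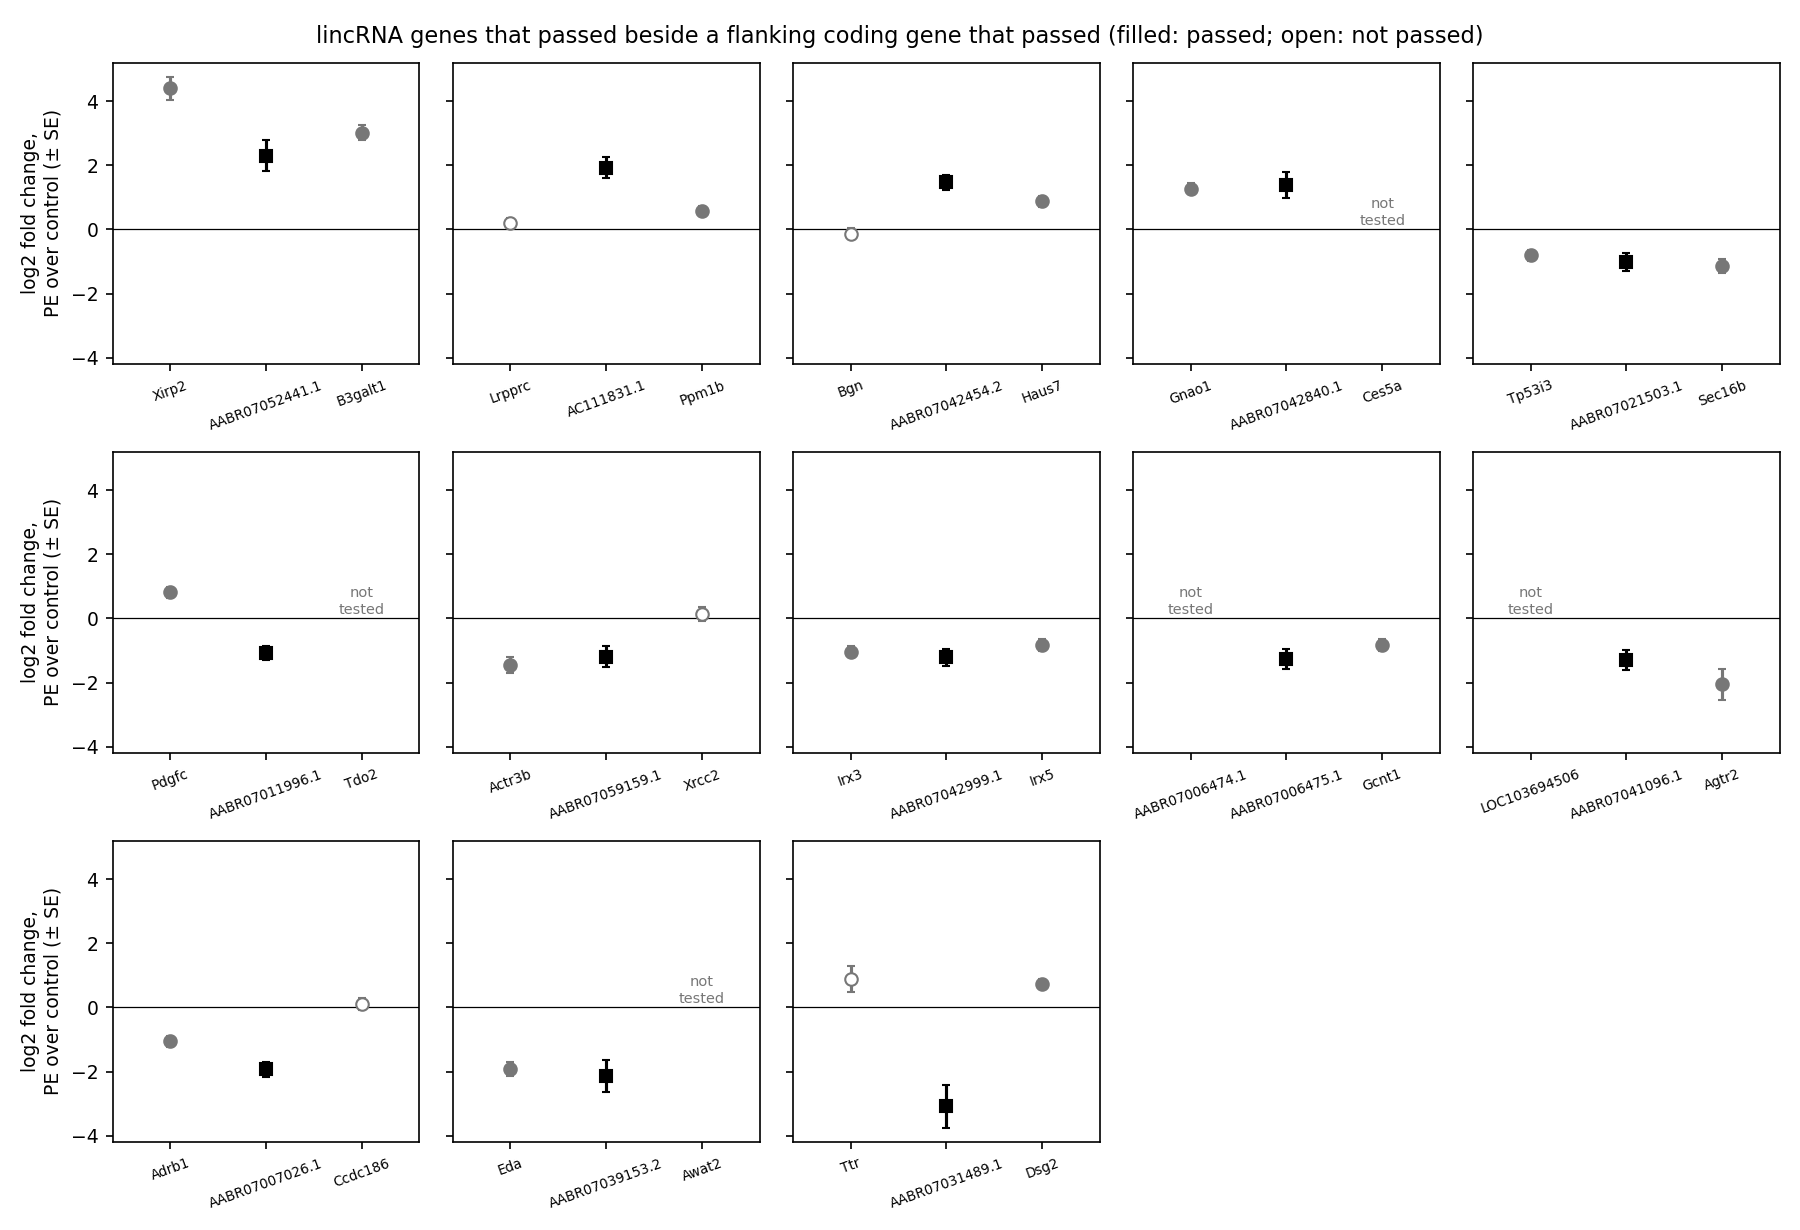
Log2 fold change (PE over control, with its SE) of the 13 called members that have a called flanking gene (black squares), each between its flanking protein-coding genes in row order (grey circles, filled where the gene passed the test and open where it did not). Member and called flank lie on the same side of 0 in 11 panels, and on opposite sides for AABR07011996.1 and AABR07031489.1.

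Members were placed on chromosomes by the matched genes around them, and 10 could not be placed. Chromosome 1 held 30 (1 higher, 4 lower), chromosome 2 held 17 (2 higher, 2 lower) and chromosome X held 16 (3 higher, 2 lower). Of the tested protein-coding genes, 18.0% were called on chromosome 1, 20.1% on chromosome 2 and 17.8% on chromosome X, and the members were not tested against these shares. There were 15 intervals between protein-coding genes that held more than 1 member, 32 members in all, and these are not independent loci.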

How the data were processed

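The authors deposited a table of raw counts per gene and library and their own comparison. Per the submitters' processing notes, cutadapt 2.0, STAR 2.4.2a, featureCounts 1.6.4 and the build Rnor_6.0 were used. The sources used here give neither their roles nor the annotation release or strand setting. The authors' comparison holds, per the file headers, a mean normalized signal (baseMean), a log2 fold change with its standard error, a test statistic (score), raw and adjusted p-values, and the gene type. Its 20666 log2 fold changes equalled a DESeq2 1.42.0 refit within 1e-06.

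Counts were tested as deposited with edgeR 4.0.16 (limma 3.58.1, R 4.3.3), using TMM factors, the expression filter (minimum count 10, minimum total 15) and the quasi-likelihood F test on all 15257 genes kept. All 217 members passed the filter. Benjamini-Hochberg adjusted p under 0.05 counted as called. Standard errors were derived from the fold change and its F. CPM uses the column total, while fold changes use TMM-scaled libraries. Chi-square over its degrees of freedom was 23.4 between the PE libraries and 161 between the controls, so none was a copy. The fit was tested on simulated data.

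All called members are named, as are the 10 with the highest CPM, those with gene names, and flanking genes, of which 1 result is not reported here. The members that did not pass but had extreme values were chosen after their values were seen. The members and all lists were chosen with earlier results of these data known. Alternatives were DESeq2, other size factors, no filter, mitochondrial genes left out, a replicate block, and each library left out.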

Additional observations from a re-analysis of the deposited data

How the results depend on the processing

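Counts of members depended most on single libraries. Leaving out each library in turn gave 6 to 29 members higher and 12 to 34 lower, and 604 to 2398 of all genes higher and 601 to 2389 lower, with the spread then taken from the other pair alone. Of the called members, 6 of 14 higher and 8 of 21 lower passed with all 4 libraries and without each. DESeq2 gave 12 higher and 19 lower, its own size factors in edgeR 12 and 20, library sizes alone 13 and 24, no expression filter 19 and 29, and mitochondrial genes left out 12 and 21. With the replicate block, 15 members were higher and 21 lower, and 913 and 1051 of all genes, and AABR07025386.1 (adjusted p = 0.172) and AC110709.2 (adjusted p = 0.113) were lost. Deviations of same-numbered libraries correlated at −0.229 over 15257 genes. With 2 libraries in each group, this value cannot show whether the numbers pair the libraries, and the labels do not say. A crossed replicate block, added after seeing the data, gave 25 members higher and 34 lower, and 2270 and 2407 of all genes. AC134224.3 (−1.15 and 0.50) and AABR07039356.2 (−0.22 and 0.03) changed sign between leaving out control replicate 1 and control replicate 2. No named member changed sign under the settings that kept all 4 libraries. The cause of these differences was not tested. The mean level of 167 of the members was under 5 CPM.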
